A study of Mus musculus with 11 samples.

Results

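The genes described here encode secreted signals, inhibitors and targets of the transforming growth factor beta (TGF-beta) and bone morphogenetic protein (BMP) pathways in mouse pancreas. There were 10 of them, listed by name, with no measured value in the rule: the ligand genes Tgfb1, Tgfb2, Inhba and Inhbb, the secreted antagonist gene Sostdc1, the inhibitory SMAD genes Smad6 and Smad7, and the target genes Id1, Id2 and Id3. All 10 were measured, each by 1 probe set carrying a single gene symbol, out of 19938 genes with such a probe set. Pancreata of wild-type C57Bl6J mice with caerulein-induced acute pancreatitis (6 arrays) were compared with pancreata of NaCl-injected mice of the same strain (5 arrays). Caerulein mimics the gut hormone cholecystokinin, and high doses overstimulate secretion by acinar cells. It was injected into the peritoneum 9 times at hourly intervals, and the series text records the dose as 50 mg/kg, which could not be verified. Neither the age of the mice nor the time of tissue collection is stated in the labels. The series text counts 4 control mice, but the titles name 5 NaCl samples, and all 5 were used.

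Ligands of this family bind paired type II and type I receptor kinases at the cell surface, which phosphorylate receptor SMAD proteins. Receptor SMADs join the common SMAD4 and act on transcription in the nucleus. TGF-beta and activin signal mainly through SMAD2 and SMAD3, and BMPs through SMAD1, SMAD5 and SMAD9. The inhibitory proteins SMAD6 and SMAD7 are induced by the pathway and dampen it, SMAD6 mainly the BMP branch and SMAD7 both. ID proteins bind basic helix-loop-helix (bHLH) transcription factors and keep them from DNA, and their genes are classical BMP targets. In the pancreas the TGF-beta branch is best known for activating stellate cells and for matrix deposition after injury.

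All values are log2 expression per probe set as deposited, so 1 unit is a doubling. Apart from pairs of related genes compared within arrays, each gene was compared between groups only with itself. Differences are caerulein minus NaCl, with the standard error (SE) and the Benjamini-Hochberg adjusted p of a limma fit over all 35556 probe sets, and a gene counted as past the threshold at an adjusted p under 0.05. The array medians were 5.20 to 5.25 in caerulein and 5.35 to 5.40 in NaCl, and the median difference over all genes was -0.13. The correlation between arrays was 0.981 to 0.991 within groups and 0.938 to 0.955 between groups. The acinar marker list of 10 genes had a mean level of 11.59 to 11.72 per caerulein array, against 12.01 to 12.20 per NaCl array, well above the array medians in both groups. As deposited, 6 of its genes did not pass, all encoding digestive enzymes, with differences from -0.12 (Cela2a) to 0.03 (Ctrb1). The transcription factor genes Bhlha15, Rbpjl and Nr5a2 fell by 2.00, 1.43 and 0.83, and Ptf1a rose by 0.55. The labels do not say whether each array came from a different mouse, and a p-value here reflects only how far the arrays differ from each other, which may be technical.

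Of the 10 genes, 2 rose (Tgfb1 and Inhba), 2 fell (Sostdc1 and Smad6), and 6 did not pass. Over all 19938 genes, 20.3% rose and 34.3% fell, 54.6% in all, so these counts are near the background or below it. The median difference of the 10 genes was 0.05, while their mean level had the other sign, at 6.12 in caerulein and 6.26 in NaCl. The background itself depended on the scaling: 4051 genes rose and 6839 fell as deposited, 4365 and 3636 after cyclic loess, and 1386 and 16882 when arrays were set to an equal mean of a list of common reference genes. That last scaling moved the median of all genes to -0.80. As deposited, the reference list had 8 of 14 genes higher and 0 lower, and its gene Actb, singled out after its values were seen, was higher by 2.93. The groups did not overlap for 4 of the 10 genes, the same 4 that passed, against 37.2% of all genes. That share was made up of 16.7% with every caerulein array above NaCl and 20.6% with every one below. The plot of members by array shows these values.

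**Figure D1:**
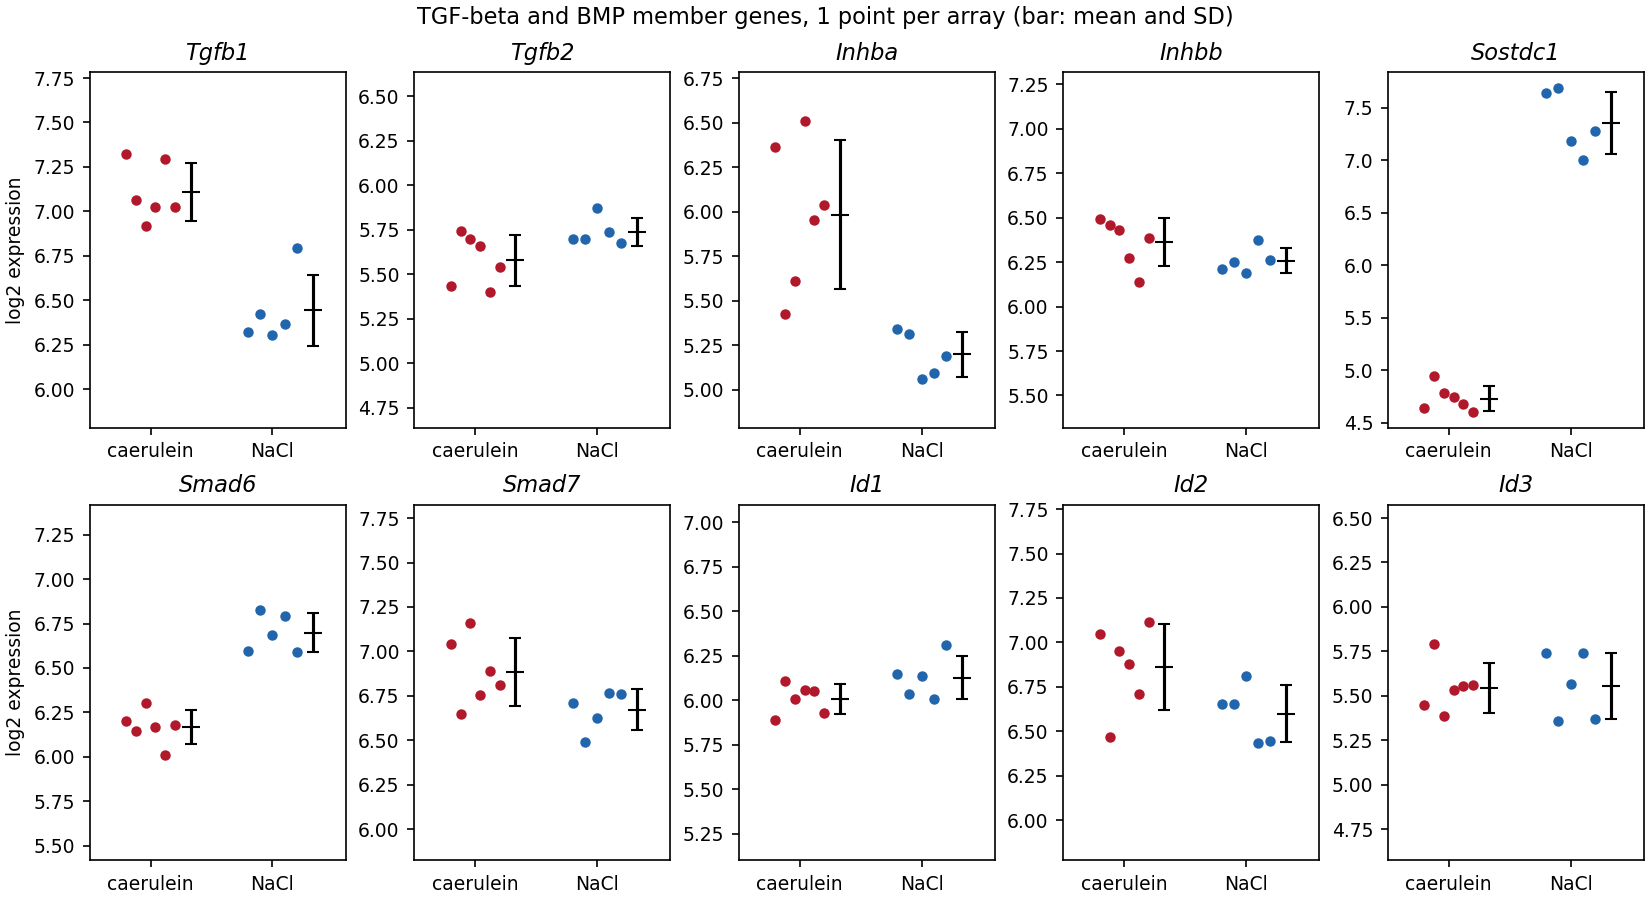
Log2 expression of the 10 genes, with 1 point per array (6 caerulein in red, 5 NaCl in blue) and the mean and SD as a bar. The caerulein and NaCl points are fully separate for Tgfb1, Inhba, Sostdc1 and Smad6 and overlap for the other 6 genes. Vertical axes span at least 2 units and differ between panels, and Sostdc1 covers the widest range.

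Tgfb1, which encodes the TGF-beta made by many cells including macrophages, platelets and epithelium, was higher in caerulein. Its log2 expression was lowest at 6.92, had a median of 7.04 and was highest at 7.32 in caerulein, against 6.32, 6.43, 6.30, 6.37 and 6.79 in NaCl. The groups did not overlap, although NaCl replicate 5 came close to the lowest caerulein array. The mean was 7.11 ± 0.16 (SD, n = 6) in caerulein and 6.44 ± 0.20 (SD, n = 5) in NaCl, a 1.59-fold rise (log2 difference 0.67, SE 0.11, limma adjusted p = 0.000244). With an equal mean of the reference list the difference was -0.0032 (adjusted p = 0.982), and under the 3 other scalings it was 0.56 to 0.63. In whole tissue, more cells of a type and more RNA per cell cannot be told apart. Markers of monocytes and macrophages moved in the same direction: 7 of 13 were higher and 0 lower, their mean level per array was 6.13 to 6.93 in caerulein, against 5.58 to 5.70 in NaCl, and Cd14 and Lyz2 were higher by 2.31 and 2.01. Markers of platelets had 1 of 5 higher and 3 lower, and 2 higher and 0 lower after cyclic loess. With an equal mean of the reference list 5 macrophage markers were higher and 6 lower, and 0 platelet markers higher and 5 lower. The part of either cell type in the Tgfb1 rise was not tested.

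Tgfb2, a second TGF-beta isoform, did not pass. Its values were 5.40, 5.60 and 5.74 (lowest, median and highest) in caerulein, against 5.70, 5.70, 5.87, 5.74 and 5.68 in NaCl, and the groups overlapped. The difference was -0.16 (95% interval -0.33 to 0.01, limma adjusted p = 0.116). It was lower with equal 75th percentiles (-0.22, adjusted p = 0.0349), but 0.014 after cyclic loess, so its direction was not settled. A comparison within arrays does not depend on a shift of whole arrays, but it can still depend on level. At a level of 6 to 7, where Tgfb1 lay on average, 31.5% of all genes rose. At a level of 5 to 6, where Tgfb2 lay, 9.23% rose. Tgfb1 minus Tgfb2 was larger in caerulein than in NaCl by 0.82 (SE 0.17), at 1.22 to 1.90 in caerulein, against 0.43 to 1.12 in NaCl. The exact two-sided permutation test gave p = 0.00433, the smallest that 6 against 5 arrays can give, and p = 0.013 after adjustment over 6 such pairs of related genes.

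The 250 bases before the start site are printed for this pair of ligand genes, because the pair differed in response, from the RefSeq promoter table of build GRCm38.p6. The Tgfb1 window is chr7:25686752-25687001 on the plus strand and the Tgfb2 window chr1:186705990-186706239 on the minus strand. Capitals mark matches, on either strand, to the 8 motifs searched: AP-1 (TGANTCA), CRE (TGACGTCA), the SMAD palindrome (GTCTAGAC), a BMP-responsive SMAD motif (GGCGCC), the CAGA box of SMAD3 and SMAD4 (CAGACA), the E-box (CANNTG), the GC box (GGGCGG) and the TATA box (TATAAA).
Tgfb1: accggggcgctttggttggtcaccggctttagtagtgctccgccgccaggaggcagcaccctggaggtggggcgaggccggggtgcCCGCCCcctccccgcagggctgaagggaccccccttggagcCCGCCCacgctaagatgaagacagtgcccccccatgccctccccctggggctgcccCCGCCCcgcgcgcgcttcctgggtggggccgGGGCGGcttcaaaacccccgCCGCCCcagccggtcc
Tgfb2: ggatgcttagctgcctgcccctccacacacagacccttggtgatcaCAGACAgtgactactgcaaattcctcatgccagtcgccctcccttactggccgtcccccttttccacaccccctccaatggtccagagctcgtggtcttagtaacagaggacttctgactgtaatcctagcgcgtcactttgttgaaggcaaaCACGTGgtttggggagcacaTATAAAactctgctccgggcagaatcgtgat
Tgfb1 held 5 GC boxes and none of the other motifs, with 75.2% G and C. Tgfb2 held no GC box, but a TATA box at -31 to -26, an E-box at -51 to -46 and a CAGA box at -204 to -199, counted from the start site. Among 32851 promoter windows of the same length, 32.7% held a GC box, 12.4% a TATA box, 66.2% an E-box and 17.1% a CAGA box. No motif overlapped another in the printed windows, and a match is a description of the letters.

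Inhba encodes the beta A subunit of activin A, a ligand raised in inflammation and repair, and it was higher in caerulein with a wide spread. Its caerulein values ran from 5.43 through a median of 6.00 to 6.51, against 5.34, 5.31, 5.06, 5.09 and 5.19 in NaCl. All caerulein arrays lay above all NaCl arrays, but caerulein replicates 2 and 3 (5.43 and 5.61) lay near the controls and replicates 1 and 4 (6.36 and 6.51) far from them. The SD was 0.42 in caerulein (n = 6) and 0.13 in NaCl (n = 5). The difference was 0.78 (SE 0.17, 1.72-fold, limma adjusted p = 0.00278). It was 0.72 to 0.96 under 3 other scalings, and 0.12 (adjusted p = 0.504) with an equal mean of the reference list.

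Inhbb, which encodes the beta B subunit of activin B, had values of 6.14, 6.41 and 6.49 (lowest, median and highest) in caerulein, against 6.21, 6.25, 6.19, 6.38 and 6.26 in NaCl. The groups overlapped and the difference of 0.10 did not pass (95% interval -0.06 to 0.27, limma adjusted p = 0.272). Inhba minus Inhbb was larger in caerulein than in NaCl by 0.68 (SE 0.22), although the lowest caerulein array (-1.03) lay within the NaCl range of -1.28 to -0.87. The exact two-sided permutation test gave p = 0.0173, or 0.0346 adjusted over the 6 pairs.

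The 2 activin subunit genes had unlike promoter windows, shown here with the same capitals because only 1 of the 2 genes passed the threshold. Inhba lies at chr13:16011601-16011850 on the plus strand and Inhbb at chr1:119422249-119422498 on the minus strand (GRCm38.p6).
Inhba: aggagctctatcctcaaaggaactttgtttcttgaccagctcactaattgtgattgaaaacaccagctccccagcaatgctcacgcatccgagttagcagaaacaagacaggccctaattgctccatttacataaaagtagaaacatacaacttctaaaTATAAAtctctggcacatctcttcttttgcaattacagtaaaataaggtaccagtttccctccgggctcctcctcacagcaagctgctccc
Inhbb: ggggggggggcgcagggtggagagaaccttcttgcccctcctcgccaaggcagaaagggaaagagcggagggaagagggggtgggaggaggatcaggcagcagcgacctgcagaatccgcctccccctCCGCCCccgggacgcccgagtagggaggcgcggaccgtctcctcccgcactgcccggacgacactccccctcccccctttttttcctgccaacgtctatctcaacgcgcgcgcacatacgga
The Inhba window had 43.2% G and C and a single match, a TATA box at -91 to -86. The Inhbb window had 68.0% G and C and a single GC box at -122 to -117.

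Sostdc1 showed the widest change of the 10 genes. It encodes a secreted protein, also called ectodin or USAG-1, that binds BMPs and keeps them from their receptors, and it also inhibits Wnt signalling. Its caerulein values were 4.61, 4.71 and 4.94 (lowest, median and highest), against 7.64, 7.68, 7.18, 7.01 and 7.27 in NaCl. The gap between the groups exceeded the range within either. The mean was 4.73 ± 0.12 (SD, n = 6) in caerulein and 7.36 ± 0.30 (SD, n = 5) in NaCl, a 6.17-fold fall (log2 difference -2.62, SE 0.12, limma adjusted p = 3.87e-09). The difference stayed between -3.29 and -2.49 under the 4 other scalings. The caerulein level lay below the array medians, and whether it was above background is unknown.

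The inhibitory SMAD genes parted. Smad6 fell, with values of 6.01, 6.17 and 6.30 (lowest, median and highest) in caerulein, against 6.59, 6.83, 6.68, 6.79 and 6.59 in NaCl. All caerulein arrays lay below all NaCl arrays. The difference was -0.53 (SE 0.07, limma adjusted p = 6.21e-05), a 1.44-fold fall, and it was -1.20 to -0.49 under the 4 other scalings. Markers of endothelium, where Smad6 is known to be prominent, had 3 of 12 genes higher (Pecam1 by 0.39 and Cdh5 by 0.38 among them) and 1 lower, against 20.3% and 34.3% of all genes. The count of 1 lower was 0 without any one of NaCl replicates 2 and 3 and caerulein replicates 1, 3, 4 and 6. Their mean level per array was 6.25 to 6.40 in caerulein, against 6.20 to 6.28 in NaCl, and with an equal mean of the reference list 0 were higher and 12 lower. Their part in the Smad6 fall was not tested.

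Smad7 had values of 6.65, 6.85 and 7.16 (lowest, median and highest) in caerulein, against 6.71, 6.49, 6.62, 6.76 and 6.76 in NaCl. The groups overlapped through caerulein replicates 2 and 4 (6.65 and 6.76). The difference was 0.21 (SE 0.10, 95% interval 0.01 to 0.42) and did not pass (limma adjusted p = 0.0868), but it passed without caerulein replicate 2 (0.26, adjusted p = 0.0417). With an equal mean of the reference list it turned to -0.46 (adjusted p = 0.00137). Within arrays, Smad6 minus Smad7 was lower in caerulein by 0.74 (SE 0.11). It lay between -0.88 and -0.50 in caerulein, against -0.17 to 0.34 in NaCl (exact two-sided permutation p = 0.00433, 0.013 adjusted over the 6 pairs).

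The Smad6 window is shown because this gene fell and differed in response from Smad7, at chr9:64022060-64022309 on the minus strand (GRCm38.p6).
Smad6: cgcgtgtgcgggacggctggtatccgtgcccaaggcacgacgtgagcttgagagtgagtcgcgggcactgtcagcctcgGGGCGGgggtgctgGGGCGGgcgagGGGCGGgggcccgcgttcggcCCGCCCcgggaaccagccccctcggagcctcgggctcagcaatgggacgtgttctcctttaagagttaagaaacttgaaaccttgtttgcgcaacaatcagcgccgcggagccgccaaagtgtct
It held 4 GC boxes and none of the other 7 motifs.

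None of the 3 Id genes passed the threshold as deposited. Id1, a BMP target prominent in endothelium and progenitors, had 5.89, 6.03 and 6.11 (lowest, median and highest) in caerulein, against 6.15, 6.03, 6.14, 6.01 and 6.31 in NaCl. Its difference was -0.12 (95% interval -0.27 to 0.03, limma adjusted p = 0.183). With equal 75th percentiles it was -0.18 (adjusted p = 0.0485) and with an equal mean of the reference list -0.79 (adjusted p = 4.05e-06).

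Id2, which is expressed in many differentiating tissues, had 6.47, 6.92 and 7.12 (lowest, median and highest) in caerulein, against 6.65, 6.65, 6.81, 6.44 and 6.44 in NaCl. Of the 6 caerulein arrays, 4 lay above all NaCl arrays, and replicate 2 was lowest. The difference of 0.26 (SE 0.12, 95% interval 0.01 to 0.52) had a limma adjusted p of 0.0868, and it passed without caerulein replicate 2 (0.34, adjusted p = 0.0167). It turned to -0.41 with an equal mean of the reference list (adjusted p = 0.00467). Among the 7 members whose promoter window was searched, only Id2 held the BMP-responsive SMAD motif, at -231 to -226, which 9.59% of all windows held.
Id2: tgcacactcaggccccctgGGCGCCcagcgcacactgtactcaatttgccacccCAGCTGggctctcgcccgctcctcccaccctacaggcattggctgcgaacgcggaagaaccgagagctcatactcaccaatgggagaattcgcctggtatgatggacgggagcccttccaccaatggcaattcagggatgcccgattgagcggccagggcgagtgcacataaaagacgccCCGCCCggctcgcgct
This window is chr12:25096093-25096342 on the minus strand (GRCm38.p6), and it also held an E-box and a GC box.

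Id3 had 5.38, 5.54 and 5.79 (lowest, median and highest) in caerulein, against 5.74, 5.36, 5.57, 5.74 and 5.37 in NaCl. The groups lay over each other, with a difference of -0.01 (95% interval -0.22 to 0.20, limma adjusted p = 0.939), and its direction changed with the scaling. Among the Id genes compared within arrays, Id1 minus Id2 differed by -0.38 (SE 0.17, exact permutation p = 0.0519, 0.0779 adjusted), Id1 minus Id3 by -0.11 (SE 0.12, exact permutation p = 0.385, also after adjustment) and Id2 minus Id3 by 0.27 (SE 0.19, exact permutation p = 0.19, 0.229 adjusted). Without caerulein replicate 2, Id1 minus Id2 was -0.48 (unadjusted exact permutation p = 0.0159) and Id2 minus Id3 0.40 (unadjusted exact permutation p = 0.0317), and without caerulein replicate 5 Id1 minus Id2 was -0.42 (unadjusted exact permutation p = 0.0476).

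**Figure D2:**
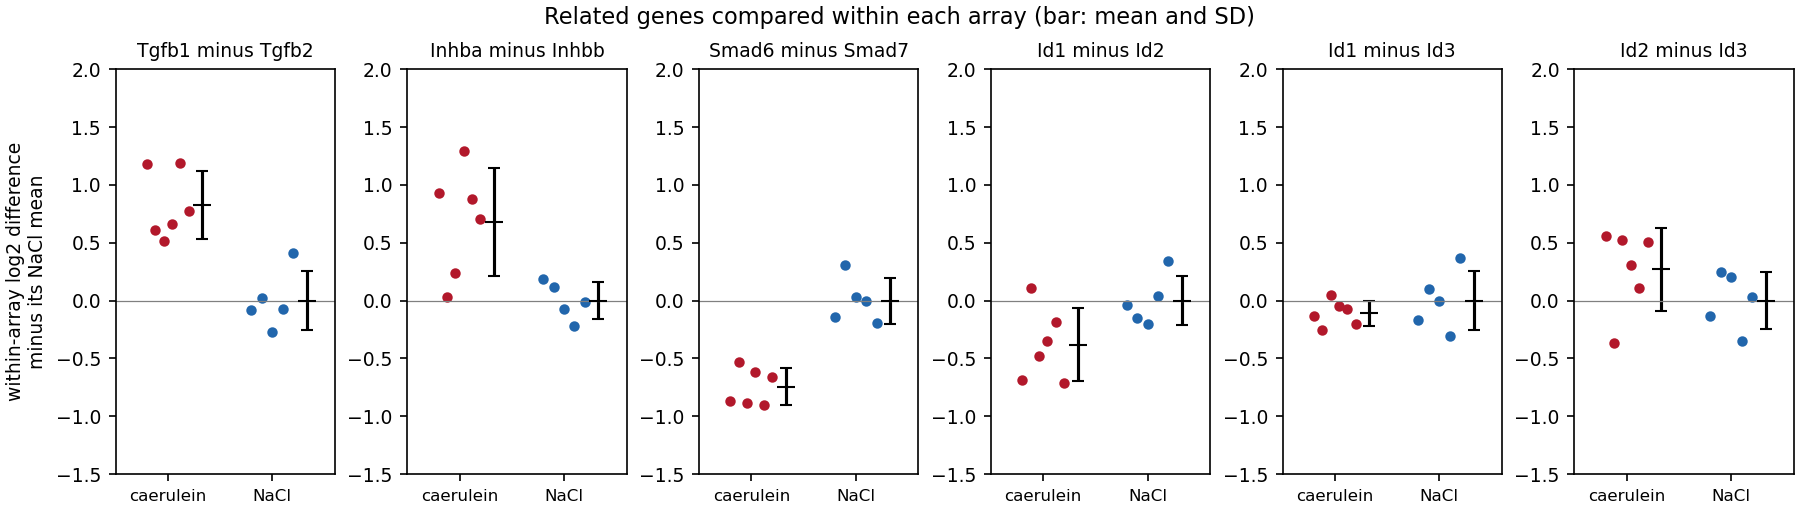
Log2 value of the first gene minus that of the second within each array, after subtraction of the NaCl mean, for 6 pairs of related genes (caerulein red, NaCl blue, bars mean and SD). The caerulein and NaCl points are fully separate for Tgfb1 minus Tgfb2 and for Smad6 minus Smad7, and overlap in the other 4 pairs.

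**Figure D3:**
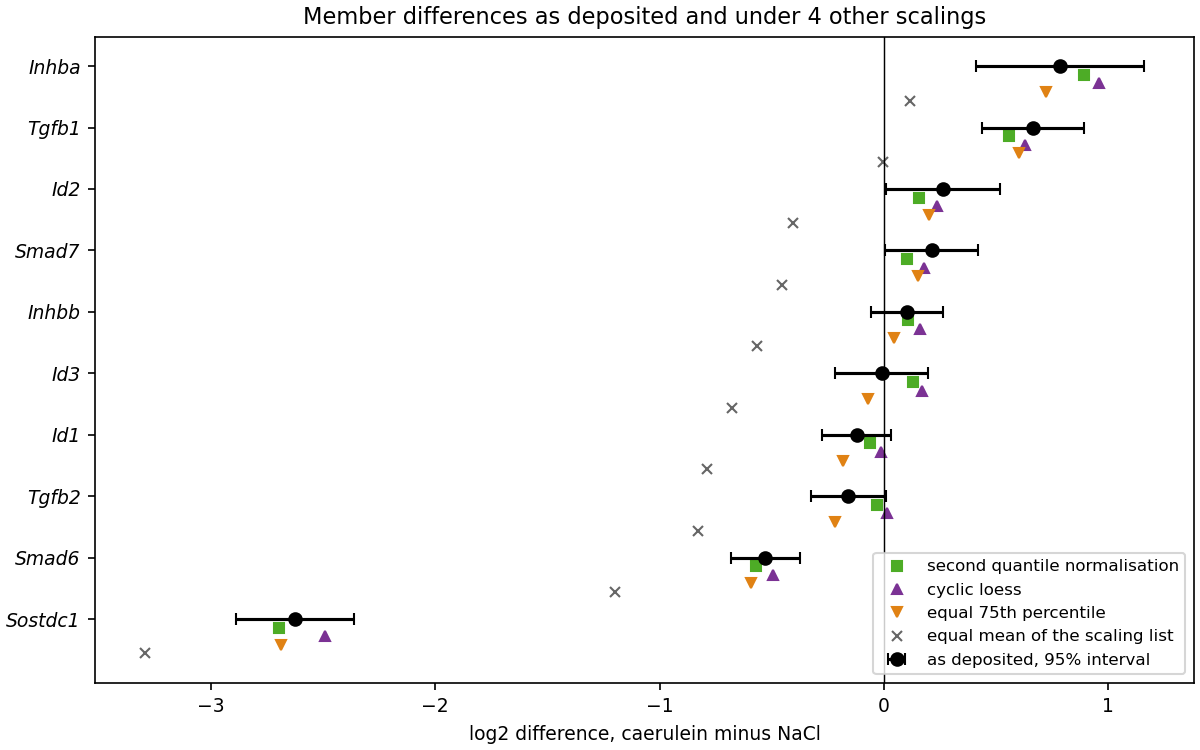
Log2 difference, caerulein minus NaCl, of the 10 genes as deposited (black, with 95% interval) and under 4 other scalings of the arrays (coloured marks). Sostdc1 and Smad6 lie below 0 under every scaling shown, while Tgfb1 and Inhba lie near 0 with an equal mean of the reference list and above 0 otherwise.

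Other genes of the pathways were counted in lists chosen by function. Each count is to be read against all genes, of which 20.3% rose and 34.3% fell, and against genes of similar level. Rises were most common at levels of 7 to 10, and falls at a level of 5 to 6. Among genes with a mean level of 2 to 5, 2.08% rose and 28.3% fell. At a level of 5 to 6, 9.23% rose and 49% fell. At a level of 6 to 7, 31.5% rose and 35.6% fell, and at a level of 7 to 8, 54% rose and 23.4% fell. In the list of receptor and common SMADs, the carriers of the signal, 4 of 6 rose and 1 fell, with a median difference of 0.85 against -0.13 for all genes. The list had a mean level of 7.45 in caerulein and 6.75 in NaCl, where rises were common. Smad3, the TGF-beta and activin effector, averaged 8.65 ± 0.12 (SD, n = 6) in caerulein and 6.94 ± 0.15 (SD, n = 5) in NaCl, a 3.25-fold rise (log2 difference 1.70, SE 0.08, limma adjusted p = 6.41e-09). Smad2, its partner, rose 2.22-fold, the common Smad4 1.81-fold, and Smad1 of the BMP branch 1.79-fold. Smad9, also of the BMP branch and itself a BMP target, fell by 0.45. With an equal mean of the reference list 3 were higher and 2 lower, and the rise of Smad1 did not pass there.

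Among the type I, type II and co-receptors, with a mean level of 6.50 in caerulein and 6.40 in NaCl, 6 of 18 rose and 6 fell, with a median of 0.01. The counts were 3 and 4 after repeated quantile normalisation, and 2 and 14 with an equal mean of the reference list. Acvr1, a BMP and activin type I receptor also known as ALK2, rose 2.74-fold (log2 difference 1.45, SE 0.10, limma adjusted p = 1.9e-07). The TGF-beta receptor genes Tgfbr1 and Tgfbr2 rose 2.19-fold and 1.70-fold, and Tgfbr2 did not pass with an equal mean of the reference list (0.10, adjusted p = 0.372). Acvr1c, the ALK7 receptor, averaged 5.09 in caerulein and 5.66 in NaCl (limma adjusted p = 0.0312). This difference was lost after a second quantile normalisation (adjusted p = 0.113), after cyclic loess (adjusted p = 0.176) and with the replicate number in the fit. It was also lost without any one of 4 arrays, NaCl replicates 2, 4 and 5 and caerulein replicate 4 (adjusted p = 0.0587 to 0.0685).

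Of 19 intracellular regulators of SMAD signalling, 14 rose and 2 fell, with a median of 0.80. Their mean level was 7.50 in caerulein and 6.70 in NaCl, again a level at which 31.5% to 54% of all genes rose. The SMAD corepressor gene Tgif1 rose 9.25-fold, to a mean of 9.99 ± 0.16 (SD, n = 6) in caerulein, against 6.78 ± 0.25 (SD, n = 5) in NaCl (limma adjusted p = 4.91e-10). Its arrays ran from 9.77 to 10.16 in caerulein, against 6.45 to 7.10 in NaCl. Pmepa1, a TGF-beta-induced feedback inhibitor, rose 3.46-fold, the ubiquitin ligase Smurf1 3.30-fold and the SnoN corepressor gene Skil 3.19-fold, whereas the ubiquitin ligase Wwp1 fell by 0.40. With an equal mean of the reference list 6 of the 19 were higher and 6 lower, and 4 were lower after repeated quantile normalisation.

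Of 16 BMP and GDF ligand genes 10 fell and 1 rose, with a median of -0.30. Their mean level was 5.39 in caerulein and 5.69 in NaCl, and at a level of 5 to 6, 49% of all genes fell. The ligand genes were spread widely around that mean. Bmp7 averaged 7.20 in caerulein and 7.98 in NaCl, and at a level of 7 to 8, 23.4% of all genes fell. Bmp5 averaged 3.93 and 3.95, and at a level of 2 to 5, 28.3% fell. After cyclic loess 7 of the 16 ligand genes were lower, and with an equal mean of the reference list 15 were lower and 0 higher. Leaving out 1 array at a time gave 7 to 10 lower ligand genes. The 10 came only without NaCl replicate 1, and the 7 without NaCl replicate 3 or caerulein replicate 3 or 5. Bmp7 fell by 0.78 (SE 0.08, limma adjusted p = 8.25e-06), Bmp3 by 0.77, Gdf10 by 0.69 and Bmp4 by 0.47. Bmp2 rose by 0.38 (limma adjusted p = 0.0145) and was -0.29 (adjusted p = 0.0547) with an equal mean of the reference list. Of 8 further TGF-beta and activin type ligand genes, 1 rose (Tgfb3 by 0.30, and -0.37 with an equal mean of the reference list) and 1 fell. The latter was Inha, the inhibin alpha subunit, by 0.33. Its fall was lost with repeated quantile normalisation (adjusted p = 0.139), with cyclic loess (adjusted p = 0.214) and without NaCl replicate 2 (adjusted p = 0.0501). It was also lost when the replicate number was added to the fit. Leaving out 1 array gave 0 to 3 falls in this list, the 3 without caerulein replicate 4 and 2 without caerulein replicate 3 or 6, and with equal 75th percentiles 5 fell.

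Target genes were counted by branch. Of 20 further TGF-beta target genes 13 rose and 0 fell, with a median of 0.55. The other 7 did not pass, Ccn2 (0.07) and Snai1 (0.04) among them. Skil and Pmepa1 are counted both here and among the intracellular regulators. The list had a mean level of 7.19 in caerulein and 6.35 in NaCl, a level at which 31.5% to 54% of all genes rose. Timp1, an inhibitor of matrix metalloproteases, rose 4.84-fold. Fn1, which encodes fibronectin, rose 3.67-fold and the transcriptional repressor gene Bhlhe40 3.45-fold. Of 13 further BMP target genes 8 fell and 0 rose, with a median of -0.36, led by Id4, the fourth Id gene, which fell by 0.61 (SE 0.08, limma adjusted p = 4.22e-05). The homeobox gene Msx1 fell by 0.52, the bHLH gene Atoh8 by 0.46 and Smad9 by 0.45. The BMP targets had a mean level of 5.58 in caerulein and 5.91 in NaCl, where 49% of all genes fell. After cyclic loess 11 TGF-beta targets rose and 0 fell, and 1 BMP target rose and 6 fell. Under the reference list scaling 8 TGF-beta targets rose and 7 fell, and 0 BMP targets rose and 13 fell. The difference between the branches was not tested. Macrophage markers (7 of 13 higher, Lyz2 by 2.01) moved with the TGF-beta list. Stellate cell and fibroblast markers were mixed, with 4 of 12 higher and 2 lower, among them Vim higher by 1.03 and Lum lower by 0.77. The TGF-beta list itself holds the stellate cell genes Col3a1 and Acta2, higher by 0.83 and 0.43. It also holds Col1a1 and Col1a2, which did not pass (0.07 and -0.05). The part of these cell types in the counts was not tested. Many genes of the TGF-beta list are known to be induced by other signals too.

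Extracellular antagonists and latent complex genes, the group to which Sostdc1 belongs, had 9 of 28 higher and 12 lower. Their median difference was -0.16, but the mean level of the list had the other sign, at 6.37 in caerulein and 6.22 in NaCl, and the counts were 12 and 9 after cyclic loess, and 2 and 20 with an equal mean of the reference list. Thbs1, a matrix glycoprotein that activates latent TGF-beta, rose 8.43-fold (log2 difference 3.08, SE 0.16, limma adjusted p = 1.16e-08). The integrin gene Itgav, whose product also activates latent TGF-beta, rose 2.66-fold. The follistatin-like genes Fstl1 and Fstl3 rose 1.86-fold and 1.78-fold, but did not pass with an equal mean of the reference list (0.22 and 0.16). The BMP antagonist genes Grem1 and Nog, chosen after their values were seen, fell by 0.51 and 0.45, less than Sostdc1 at -2.62. Other extracellular antagonist genes of the list, Nbl1 and Twsg1, also chosen after their values were seen, rose by 0.50 and 0.70. Of 12 genes listed as bHLH partners and antagonists of ID proteins, 4 rose and 6 fell, at a mean level of 6.78 in caerulein and 6.97 in NaCl. With an equal mean of the reference list 1 rose and 9 fell. These counts include Rbpj (higher by 0.39) and Rbpjl, which do not encode bHLH proteins. The acinar factors Bhlha15 and Rbpjl fell by 2.00 and 1.43, but the acinar factor Ptf1a rose by 0.55. Hes1, a Notch target, rose by 1.15. Among the ID-binding E protein genes, Tcf12 rose by 0.61, Tcf4 fell by 0.35 and Tcf3 did not pass (-0.02).

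**Figure D4:**
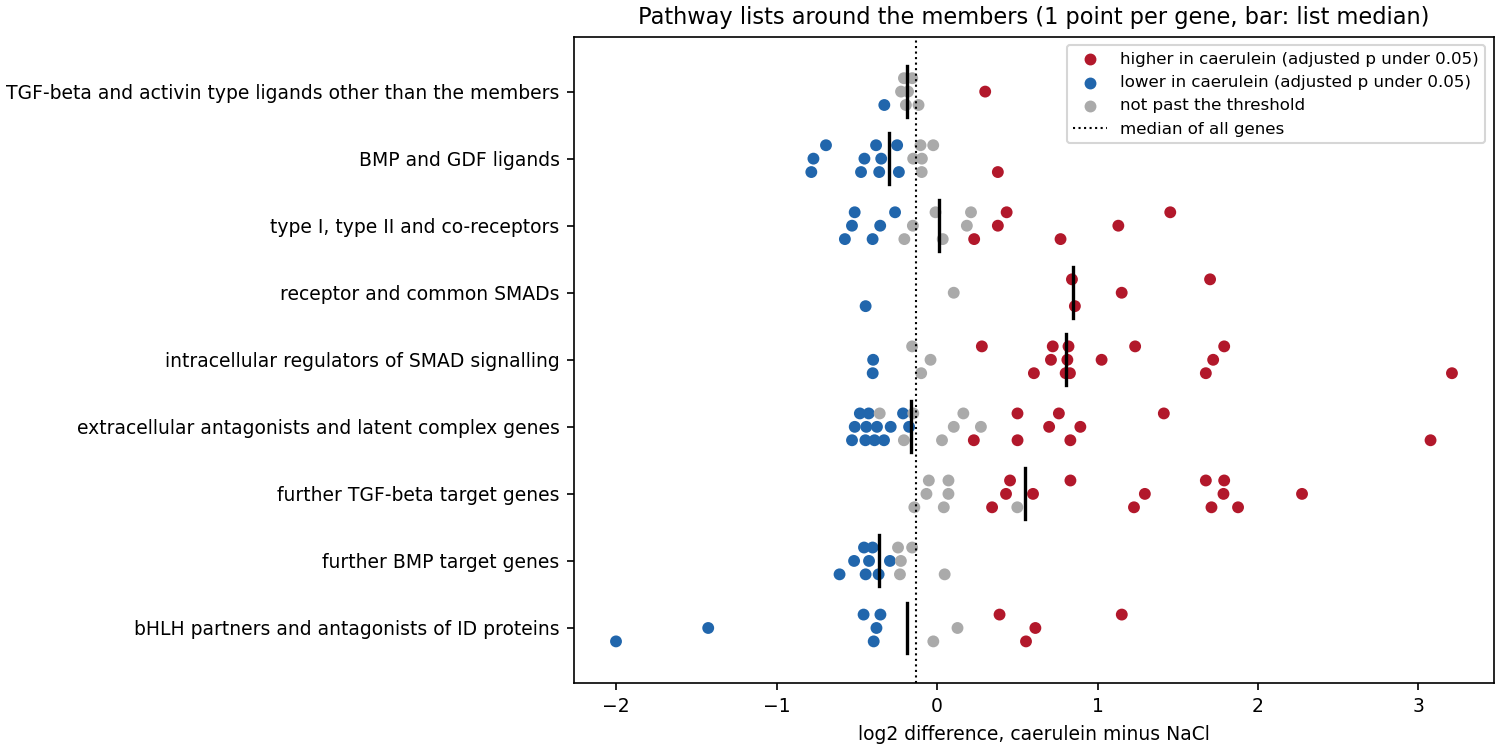
Log2 difference, caerulein minus NaCl, of every measured gene in the 9 pathway lists, coloured by the limma call (adjusted p under 0.05), with the list median as a bar and the median of all genes as a dotted line. The receptor and common SMADs, SMAD regulators and TGF-beta targets have medians of 0.85, 0.80 and 0.55, and the BMP ligands and BMP targets medians of -0.30 and -0.36.

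The genes most alike in pattern were sought for Sostdc1, Inhba and Tgfb1, the 3 members with the widest differences, by Pearson correlation over the 11 arrays as a description. Such a correlation includes the difference between groups. Above 0.9 lay 1434 genes for Sostdc1, 599 for Tgfb1 and 42 for Inhba. Closest to Sostdc1 were the kinase gene Sgk1 (r = 0.993), the cholecystokinin receptor gene Cckar (0.992) and the growth hormone receptor gene Ghr (0.991), with differences of -1.62, -4.05 and -1.58. Closest to Inhba were Itgb6 (0.956), an integrin subunit that activates latent TGF-beta, the metalloprotease gene Adam8 (0.953) and Pstpip2 (0.939). Closest to Tgfb1 were Sf3b1 (0.978), a splicing factor gene, Lrrc42 (0.977) and Rasa2 (0.967), a Ras GTPase-activating protein gene. Once group means were removed, the correlations were 0.806, 0.516 and 0.472 for the genes of Sostdc1, 0.875, 0.864 and 0.873 for those of Inhba, and 0.885, 0.888 and 0.827 for those of Tgfb1. These values come from the arrays on which the genes were picked, so their height is partly fixed by that choice.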

How the data were processed

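Biotin-labelled total RNA of pancreas was hybridised to Affymetrix arrays, 1 per sample. The authors deposited log2 values per probe set; RMA, oligo and limma are named per the submitters' processing notes, without versions. No label names the build of the probe annotation. Detection calls were not analysed here, so background is unknown, and precision rests on how many arrays each group has. Of 35556 probe sets 21789 carried 1 symbol, 1621 several and 12146 none; Entrez identifiers matched 21698 and renamed 0. Each gene was represented by its brightest probe set on average.

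Groups came from the titles. The fit was limma 3.58.1 in R 4.3.3 (lmFit, eBayes, no covariates, two-sided, Benjamini-Hochberg over all probe sets), tested on simulated data. Pairs of related genes were compared with exact permutation tests (scipy 1.17.1). The members and lists were chosen with earlier results of these data known, and the pair tests and their alternatives were added after seeing the data. Named from each pathway list were the 4 significant genes that moved furthest and the 1 that moved furthest against the list's majority, and from each marker list 2. Ptf1a, Tcf3, Tcf4, Lum, Col1a1, Col1a2, Ccn2, Snai1 and Bmp5 were named after their values were seen. So were Nbl1, Twsg1, Nr5a2, Cela2a, Ctrb1, Rbpj, Muc1 and Sox9. Alternatives were a trended robust prior, array weights, 4 rescalings, a filter on dim probe sets, the replicate block and leaving out each array. Promoters came from RefSeq (GRCm38.p6). The windows of 7 members were searched, and Id1, Smad7 and Sostdc1 are named only. Member windows on chromosome 18, where Smad7 lies, were not searched.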

Additional observations from a re-analysis of the deposited data

Results flagged for a closer look

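Among the members and the genes named by rule, 122 groups of arrays were examined for 1 array standing apart from the rest. There were 3 such groups, and chance alone marks about 1 group in 20. Tgfb1 was 6.79 in NaCl replicate 5, against 6.30 to 6.43 in the other NaCl arrays, and without that array its difference was 0.75 (limma adjusted p = 4.39e-05). Bmp3 was 8.03 in NaCl replicate 1, against 7.58 to 7.68 in the others, and without it the difference was -0.69 (limma adjusted p = 0.000105). Thbs1 was 6.04 in NaCl replicate 3, against 6.48 to 6.65 in the others, and without it the difference was 2.97 (limma adjusted p = 5.38e-08).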

How the results depend on the processing

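Tgfb1, Inhba, Smad6 and Sostdc1 kept their calls with a trended robust prior, array weights, the replicate block, equal 75th percentiles, a second quantile normalisation, cyclic loess, after the dimmest 50 percent of probe sets were dropped, and without any single array. With an equal mean of the reference list 0 members were higher and 8 lower, against 2 and 2 as deposited, and 4 were lower with equal 75th percentiles. The equal mean of the reference list turned Tgfb1 to -0.0032, Inhbb to -0.56, Id2 to -0.41, Smad7 to -0.46, Tgfb3 to -0.37, Bmp2 to -0.29, Tcf12 to -0.056, Pecam1 to -0.28, Cdh5 to -0.29 and Mmp8 to -0.25. Cyclic loess turned Id3 to 0.17 and Tgfb2 to 0.014, and quantile normalisation turned Id3 to 0.13. Leaving out 1 array at a time gave 2 to 4 higher members and 2 lower ones, the 4 only without caerulein replicate 2, and an Id3 difference of -0.060 to 0.036. With the replicate block 2 members were higher and 2 lower, and 3750 and 5477 of all genes, against 4051 and 6839, while Inha and Acvr1c did not pass (adjusted p = 0.0836 and 0.0821) and 0 endocrine markers were lower. That fit gives caerulein replicate 6 no weight, since no NaCl array has its number. Deviations of same-numbered arrays correlated at -0.052 to 0.06 over 5 pairs, too weakly to treat the numbers as pairs, although 4 of the 5 caerulein arrays correlated best with the NaCl array of their own number, a hint from the data and not from the design. Averaging several probe sets of a gene was not run, since each member had 1. Without detection calls, small changes of dim genes are the least certain.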

Other observations

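Marker lists of other cell types gave these counts, each against 20.3% of all genes higher and 34.3% lower, and most of them moved with the processing. Of 12 stellate cell and fibroblast markers 4 were higher and 2 lower (Vim by 1.03 and Col3a1 by 0.83 higher), 1 lower without NaCl replicate 2 or 3, and 1 higher and 8 lower with an equal mean of the reference list. Of 6 duct markers 4 were higher and 1 lower, and under that scaling 2 and 3. Krt19 and Krt7 were higher by 4.39 and 1.94, whereas Muc1 was lower by 1.14 and Sox9 did not pass (0.41). With array weights or equal 75th percentiles 3 duct markers were higher. The same count came without NaCl replicate 1, 2 or 5 or caerulein replicate 1, 3 or 5. Of 10 acinar markers 1 was higher and 3 lower, with 9 lower under the reference list scaling and 7 under a trended robust prior or equal 75th percentiles.

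Of 11 T, B and NK cell markers 0 were higher and 6 lower (Cd8a -0.39 and Cd4 -0.37), with 11 lower under the reference list scaling, 1 after cyclic loess and 2 after repeated quantile normalisation. Of 7 endocrine markers 0 were higher and 2 lower (Pcsk1 -0.42 and Ppy -0.30), but 0 lower after cyclic loess or without NaCl replicate 4, caerulein replicate 4 or caerulein replicate 6, and 1 without NaCl replicate 2, 3 or 5 or caerulein replicate 1, 2 or 5. Of 12 neutrophil markers 1 was higher and 2 lower (Mmp8 0.41 and Camp -0.26), but 0 higher without NaCl replicate 2, 3 or 4 or caerulein replicate 4 or 6, 3 higher without caerulein replicate 5, and 2 higher and 0 lower after cyclic loess. The platelet genes Itga2b and Gp9 were at -0.34 and -0.32.

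Over 45 pairs of members, the correlation of deviations from group means across the 11 arrays, given as a description, ran from -0.69 (Tgfb1 with Tgfb2) to 0.62 (Inhbb with Smad6), with a median of -0.091. Within the 6 caerulein arrays the strongest were negative, at -0.888 for Id3 with Smad7, -0.879 for Id1 with Id2, -0.844 for Tgfb1 with Tgfb2 and -0.816 for Id2 with Sostdc1, and the strongest positive one was 0.799 for Tgfb2 with Sostdc1. Caerulein replicate 2 held the lowest caerulein values of Inhba, Id2 and Smad7 and the highest of Sostdc1, Tgfb2, Id1 and Id3, and all these correlations include it. In the 5 NaCl arrays the same pairs, in the order named for caerulein, were at 0.496, -0.146, -0.549, 0.348 and -0.462. The pairs were picked as the strongest of the 45 in the caerulein arrays.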
